A study of Mus musculus with 27 samples.

Results

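Colon tissue of mice given FOLFOX together with complex probiotics and loperamide (CAC_FPL, n = 6 libraries) was set against that of mice given FOLFOX with saline (CAC_F, n = 5 libraries), 11 of the 27 libraries of the study. All 11 came from wild-type BALB/c mice in which AOM/DSS, the carcinogen azoxymethane followed by the colitis-inducing polymer dextran sulfate sodium, had produced inflammation-associated neoplasia. Both groups received FOLFOX by intraperitoneal injection. By gavage, CAC_FPL mice had complex probiotics with loperamide and CAC_F mice had normal saline. The tissue was a colon segment that bore tumor, taken 1 week after chemotherapy began, so tumor, mucosa and gut wall were sequenced together. Of 39971 genes in the deposited table, the 15080 with at least 1 FPKM (fragments per kilobase, scaled for depth) in at least 5 of the 27 libraries were compared. CAC_FPL mice differed from CAC_F mice by probiotics and loperamide at once, so the effects of these agents cannot be told apart in this comparison. The other 16 libraries, from CAC_FP mice (FOLFOX and probiotics, n = 5), CAC mice (AOM/DSS alone, n = 5) and untreated NC mice (n = 6), entered the estimate of spread and are given as levels.

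FOLFOX combines folinic acid, fluorouracil and oxaliplatin. It damages DNA in dividing cells, and the crypts that renew the gut lining are among the normal tissues that suffer. Damaged cells activate the transcription factor p53, which stops division, and injured mucosa releases cytokines and matrix proteases while the mature absorptive and goblet cells are lost. Loperamide is an opioid receptor agonist that acts on the gut wall and slows transit, and bacterial products such as short-chain fatty acids are sensed and taken up by the colon epithelium.

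Libraries held 67336922 to 76966764 counts in CAC_FPL and 61433532 to 77206403 in CAC_F. Colon epithelium was present in all: the intestinal transcription factor Cdx2 was at 79 to 283 CPM (counts scaled to a fixed library size) in CAC_FPL and at 92.6 to 215 CPM in CAC_F, and the squamous keratin Krt5 was at most 0.576 CPM in CAC_FPL and 0.23 CPM in CAC_F. The CAC_FPL libraries were not uniform. On the first principal component, which held 38.1% of the variance, replicates 1, 2 and 3 lay at -14.3, -24.9 and -17 and replicates 4, 5 and 6 at 39, 24.8 and 45.8, against 39.2 to 87.2 in CAC_F; CAC_FP libraries ran from -0.9 to 52.9, and CAC libraries from -55.2 to -14. CAC_FPL replicate 3 stood apart on the second component at 73.5, where the other 10 libraries lay between -31.3 and 22.1. It had 56 CPM of Hoxa13 and 47 CPM of Hoxd13, homeobox genes of the distal gut, against at most 7.55 and 0.0929 CPM in the other CAC_FPL libraries and 26.9 and 0.888 CPM in CAC_F. Raw counts of Hoxa13 were 97, 1242, 1820, 986 and 964 in CAC_F replicates 1 to 5. The CAC_FPL libraries other than replicate 3 had 147 to 542, so CAC_F replicates 2 to 5 were above them. Of 5 distal Hox genes tested 0 were called and 3 had positive log2 fold changes. The part of gut position in the results was not tested beyond a covariate. CAC_F replicate 2 had the least of several epithelial genes and 20 CPM of the pancreatic protease Prss2, against at most 0.104 CPM in the other 10 libraries. Fat also varied: the adipocyte hormone Adipoq was at 220, 28.9, 0.193, 15.3, 0.159 and 127 CPM in CAC_FPL replicates 1 to 6 and at 0, 8.69, 6.82, 0 and 0.655 CPM in CAC_F replicates 1 to 5. All 10 adipocyte genes tested had positive log2 fold changes with 1 called, Pck1, which is the same gene named among the metabolic enzymes below. With the adipocyte list, which holds Pck1, as a covariate, the calls of Cdk1, Cyp2c55 and Msh6 below were lost (adjusted p = 0.0593, 0.0555 and 0.0541, edgeR). In bulk tissue, fewer cells of a type and less RNA per cell cannot be told apart.

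**Figure D1:**
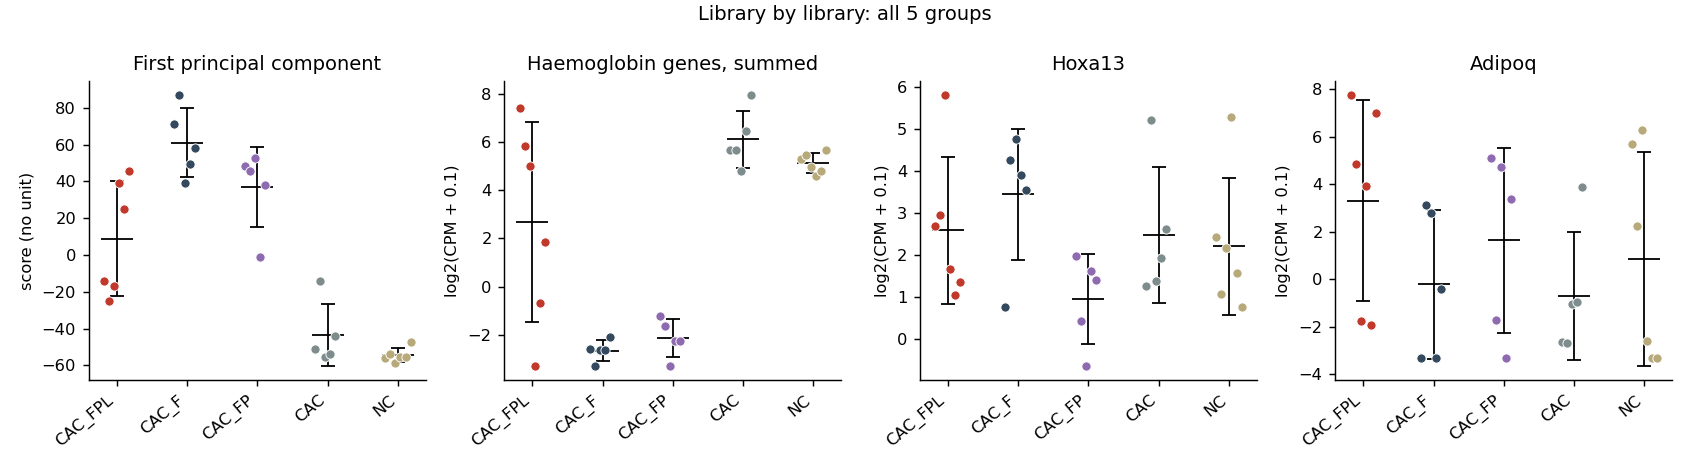
Each point is 1 library, with the group mean and SD as a bar; the panels plot the score on the first principal component, and the summed haemoglobin genes, Hoxa13 and Adipoq as log2(CPM + 0.1). CAC_FPL libraries ran from -24.9 to 45.8 on the first component, against 39.2 to 87.2 in CAC_F, and the replicate of CAC_FPL with 56 CPM of Hoxa13 is replicate 3.

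Of the 15080 genes, 1077 were higher (7.14%) and 761 lower (5.05%) in CAC_FPL than in CAC_F at an adjusted p below 0.05 by edgeR's quasi-likelihood test, 12.2% in all. Of these, 269 rose and 185 fell by at least 2-fold. The median log2 fold change of all genes tested was 0.023. In 477 genes (3.16%) the libraries of the groups did not overlap, and 371 of these were called. These calls rest on a spread estimated over all 27 libraries. With only the 11 libraries in the fit edgeR called 0 genes, with 3588 at an unadjusted p below 0.05 and a smallest adjusted p of 0.0513, whereas DESeq2 on the same 11 libraries called 800 higher and 678 lower. Without CAC_F replicate 2, edgeR called 233 higher and 192 lower. Without CAC_FPL replicate 1 it called 354 and 239, without CAC_FPL replicate 2 399 and 218, without CAC_FPL replicate 3 532 and 444, and without CAC_F replicate 1 374 and 240. The count of lower genes was 1195 without CAC_FPL replicate 5, 1190 without CAC_FPL replicate 6 and 1151 without CAC_F replicate 3. Among the 80 genes followed through these fits, a gene named below lost its call in none that left out 1 library unless the loss is given beside it. Gnat3, named at the end, was not followed.

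**Figure D2:**
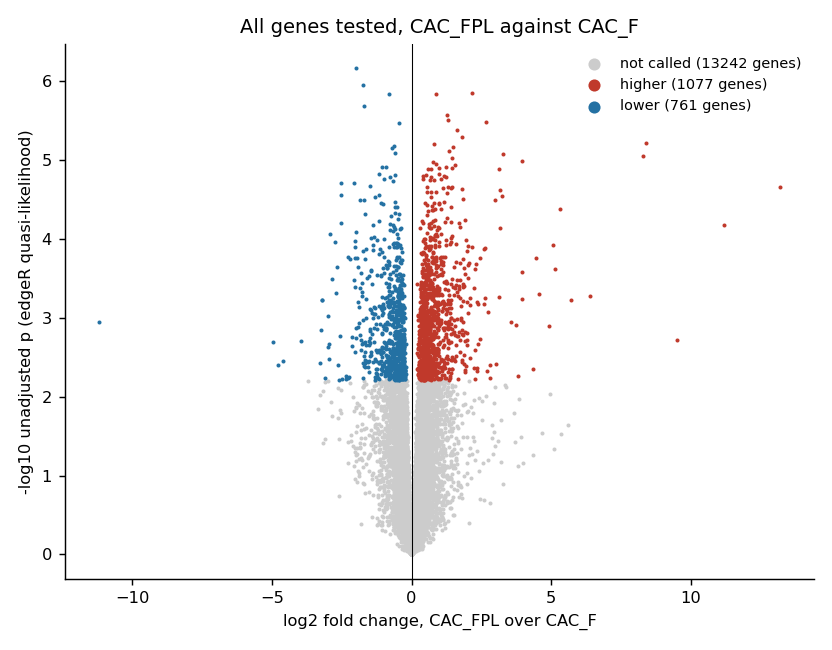
Each point is 1 of the 15080 genes tested, by its log2 fold change of CAC_FPL over CAC_F and the -log10 of its unadjusted p; the 1077 higher and 761 lower genes are coloured. Called genes lie on both sides of 0, with more on the right.

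Among genes whose libraries did not overlap, the largest increases included metabolic enzymes and carriers. Lack of overlap was a condition for naming genes by size or smallest adjusted p, here and below. For those genes it is no further evidence. Otc, the urea cycle enzyme ornithine transcarbamylase, was at 13.8, 10.9, 2.41, 1.37, 4.27 and 0.864 CPM in CAC_FPL and at 0, 0, 0.488, 0.209 and 0 CPM in CAC_F. The lowest CAC_FPL library was above the highest CAC_F library, and on the log2 scale Otc rose by 5.32 ± 1.07 (± SE throughout; adjusted p = 0.00702, edgeR). Slc27a2, which activates and carries long and very long chain fatty acids, was at 2.33, 3.72, 7.83, 0.629, 1.39 and 0.631 CPM in CAC_FPL and at 0.328, 0, 0.222, 0.283 and 0.0476 CPM in CAC_F. Again no library overlapped, and Slc27a2 rose by 3.97 ± 0.72 (adjusted p = 0.00562, edgeR). Pck1, the cytosolic phosphoenolpyruvate carboxykinase that commits carbon to glucose synthesis, was at 194, 190, 96.1, 85.2, 84.5 and 238 CPM in CAC_FPL and at 20.9, 6.43, 27.8, 38.5 and 22.8 CPM in CAC_F. It rose by 2.67 ± 0.45 (adjusted p = 0.00508, edgeR). Pck1 is also made in fat: CAC_FPL replicates 6 and 1, highest in Pck1, had the most Adipoq at 127 and 220 CPM, and replicate 3 had 96.1 CPM of Pck1 and 0.193 CPM of Adipoq. Gpt2, the mitochondrial alanine transaminase, was at 43.4, 28.1, 34.2, 16.9, 16.8 and 27.6 CPM in CAC_FPL and at 13.4, 11.5, 8.43, 10.5 and 12 CPM in CAC_F, a rise of 1.32 ± 0.22 (adjusted p = 0.00508, edgeR).

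Aoc1, the diamine oxidase that breaks down histamine in the gut, was among the higher genes with the smallest adjusted p. It was at 66.3, 54.4, 130, 76.4, 79.6 and 37 CPM in CAC_FPL and at 12, 6.27, 25.4, 24.6 and 14.4 CPM in CAC_F, a rise of 2.16 ± 0.34 (adjusted p = 0.00436, edgeR). CAC_FPL replicate 3 was highest and replicate 6 lowest, still above all of CAC_F. The table places Aoc1 on chromosome 6 from 48849830 to 48886122, in a genome build that the sources used here do not give. The other groups averaged 49.1 CPM in CAC_FP, 96.9 CPM in CAC and 69.1 CPM in NC. Anxa13, an intestinal annexin of the epithelial membrane, was at 18.1, 28.9, 15.5, 3.26, 5.6 and 2.1 CPM in CAC_FPL and at 2.03, 0.214, 1.55, 1.51 and 1.14 CPM in CAC_F, and rose by 3.25 ± 0.63 (adjusted p = 0.00633, edgeR). The groups did not overlap, but CAC_FPL replicate 6 and CAC_F replicate 1 were nearly level. Its mean was 41.1 CPM in CAC and 61.4 CPM in NC, above both groups compared here.

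Steroid and carbonyl enzymes rose as well. Akr1c14, an aldo-keto reductase acting on steroids, was at 77.2, 99.3, 168, 18.5, 36.6 and 18.6 CPM in CAC_FPL and at 7.61, 2.67, 16.3, 10.6 and 6.23 CPM in CAC_F, a rise of 3.00 ± 0.59 (adjusted p = 0.00665, edgeR). Hsd3b2 and Hsd3b3, steroid dehydrogenases, rose by 2.61 ± 0.58 and 2.30 ± 0.53 (adjusted p = 0.0104 and 0.0121, edgeR), and as close copies of each other their reads may have been split or shared. Hsd3b3 was at 42 to 201 CPM in CAC_FPL and at 2.28 to 36.3 CPM in CAC_F. In all 3 genes CAC_FPL replicate 2 or 3 was highest, and no CAC_FPL library fell into the range of CAC_F. The others that rose without overlap and are named by the same rule were Rims4, a regulator of vesicle release, by 3.29 ± 0.59, Myorg, a glycosidase of the endoplasmic reticulum, by 1.27 ± 0.21, and Tlr11, a Toll-like receptor for microbial profilin and flagellin in mice, by 3.15 ± 0.58. Their adjusted p values were 0.00562, 0.00508 and 0.00562 by edgeR. Tlr11 was at 0.631 to 1.91 CPM in CAC_FPL and at 0 to 0.343 CPM in CAC_F.

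**Figure D3:**
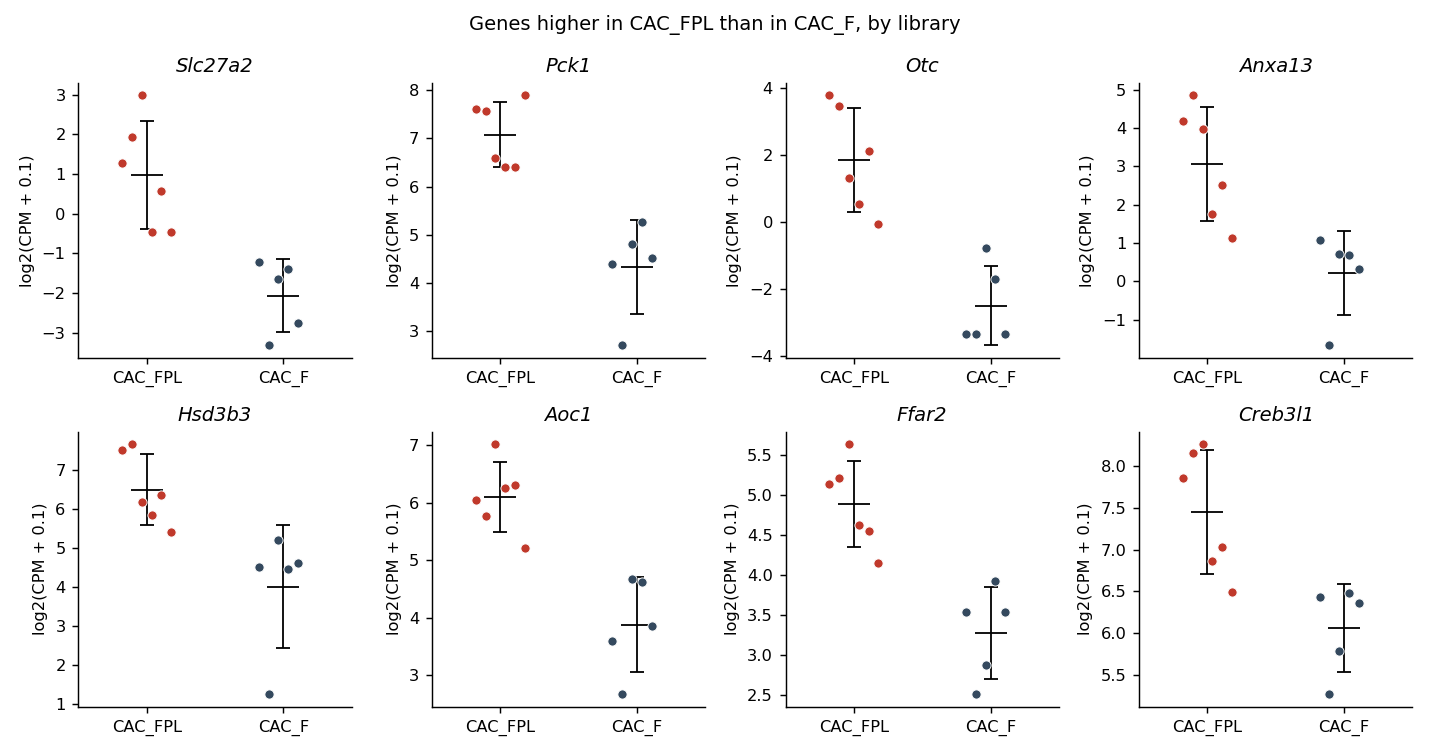
Levels of 8 genes that were higher in CAC_FPL, as log2(CPM + 0.1) with 1 point per library and the group mean and SD, CAC_FPL on the left and CAC_F on the right. No gene shown overlaps between the groups, and the CAC_FPL libraries spread more widely than those of CAC_F for Slc27a2 and Anxa13.

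Of 20 goblet cell genes tested, 4 were called higher and 0 lower (20%), and 19 had positive log2 fold changes with a median of 0.89. Over all genes tested 12.2% were called, the share to set beside each list here and below. Creb3l1, a transcription factor of secretory cells, was at 232, 286, 307, 116, 131 and 90.2 CPM in CAC_FPL and at 86.2, 38.4, 55, 89.3 and 81.9 CPM in CAC_F, and rose by 1.46 ± 0.27 (adjusted p = 0.00562, edgeR). Its groups did not overlap, although CAC_FPL replicate 6 and CAC_F replicate 4 were nearly level. Klk1, a tissue kallikrein of goblet cells, rose by 1.93 ± 0.56 (adjusted p = 0.0281, edgeR), a call lost without CAC_F replicate 2 (0.0754) or CAC_FPL replicate 1 (0.0674), 2 (0.0721) or 3 (0.0504). Atoh1, which commits crypt cells to the secretory lineage, was at 36 to 82.6 CPM in CAC_FPL and at 3.77 to 40.8 CPM in CAC_F, and rose by 1.40 ± 0.43 (adjusted p = 0.038, edgeR). Without CAC_FPL replicate 1, 2 or 3 or CAC_F replicate 1, 2 or 3 its adjusted p was 0.0516 to 0.0894. The main mucin Muc2 was not called, at 0.61 ± 0.52 (adjusted p = 0.436, edgeR), with 4042 to 20732 CPM in CAC_FPL and 1860 to 17252 CPM in CAC_F.

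Of 22 absorptive colonocyte genes, 3 were called higher and 0 lower (13.6%, near the 12.2% of all genes tested). Their median log2 fold change was 0.49. Guca2a, the hormone guanylin that drives salt and water secretion, was at 554, 707, 314, 329, 439 and 183 CPM in CAC_FPL and at 196, 32.5, 156, 187 and 118 CPM in CAC_F. It rose by 1.61 ± 0.37 (adjusted p = 0.0119, edgeR), with CAC_FPL replicate 6 inside the range of CAC_F. Cyp2c55, a colon cytochrome P450, rose by 3.75 ± 1.03 (adjusted p = 0.0226, edgeR), carried by CAC_FPL replicates 1 and 2 at 1773 and 1465 CPM. The other CAC_FPL libraries had 34.6 to 196 CPM, against 1.23 to 85.7 CPM in CAC_F, and the call was lost without CAC_FPL replicate 1 (0.0699) or 2 (0.0595) or CAC_F replicate 2 (0.0577). The chloride exchanger Slc26a3, whose loss causes chloride diarrhoea, was not called, at 1.16 ± 0.60 (adjusted p = 0.189, edgeR), with 43.8 to 498 CPM in CAC_FPL and 15.1 to 137 CPM in CAC_F. Among 21 genes of ion and water transport, 2 were higher and 0 lower (9.52%, under the share of all genes tested).

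Enzymes of xenobiotic metabolism gave 7 higher and 1 lower of 20 members, with a median log2 fold change of 1.25. Ugt2b34, a glucuronosyltransferase, was at 458, 441, 436, 264, 355 and 175 CPM in CAC_FPL and at 189, 51.1, 193, 193 and 133 CPM in CAC_F, a rise of 1.22 ± 0.30 (adjusted p = 0.0147, edgeR). Only CAC_FPL replicate 6 lay within the CAC_F range. Ces2a, an intestinal carboxylesterase, rose by 2.65 ± 0.67 and the sulfotransferase Sult1a1 by 2.10 ± 0.53 (both adjusted p = 0.0166, edgeR). The call of Ces2a was lost without CAC_F replicate 2 (0.0547) or CAC_FPL replicate 1 (0.052), and that of Sult1a1 without CAC_F replicate 1 (0.0525) or CAC_FPL replicate 2 (0.0537). The lower member was Aldh1a3, which makes retinoic acid, at 17.6, 26.8, 23, 79.5, 33.4 and 38.1 CPM in CAC_FPL and 165, 294, 58.1, 148 and 96.3 CPM in CAC_F. It fell by 2.06 ± 0.39 on the log2 scale (adjusted p = 0.00581, edgeR), and CAC_FPL replicate 4 was the 1 library inside the CAC_F range.

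Of 16 tested genes of microbial product sensing, 3 were higher and 0 lower (18.8%), with a median log2 fold change of 0.14. Ffar2, a receptor for the short-chain fatty acids that gut bacteria make, was at 35, 37, 49.5, 24.6, 23.2 and 17.7 CPM in CAC_FPL and at 11.5, 5.59, 7.26, 15.1 and 11.5 CPM in CAC_F. All CAC_FPL libraries were above all CAC_F libraries, a rise of 1.61 ± 0.27 (adjusted p = 0.00562, edgeR), and the means were 16.3 CPM in CAC_FP, 33.9 CPM in CAC and 31.5 CPM in NC. Slc5a8, a sodium-coupled carrier of butyrate, rose by 1.68 ± 0.42 (adjusted p = 0.0163, edgeR), with libraries at 35.8 to 287 CPM in CAC_FPL and 13.5 to 72.6 CPM in CAC_F. Its call was lost without CAC_FPL replicate 3 (0.0507) or CAC_F replicate 2 (0.0565). Of 10 opioid and serotonin signalling genes 2 were higher, among them Maoa, the monoamine oxidase that degrades serotonin, by 1.25 ± 0.30 (adjusted p = 0.0144, edgeR; 0.053 without CAC_F replicate 2). The µ-opioid receptor Oprm1 was under the filter, at 0 to 0.111 CPM in CAC_FPL and 0 CPM in every CAC_F library.

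The study's title names NAD+ metabolism. Of 14 NAD biosynthesis genes 3 were higher and 0 lower (21.4%), with a median log2 fold change of 0.089. Among these 3 is Nnt, a transhydrogenase described below, which is not itself an enzyme of NAD synthesis. Of 21 NAD consumption genes 3 were higher and 0 lower (14.3%, near the 12.2% of all genes tested), with a median of 0.041. Naprt, the nicotinic acid phosphoribosyltransferase, was at 45, 53.7, 51.4, 32.2, 44.9 and 21.9 CPM in CAC_FPL and at 21.7, 12.6, 22, 28.8 and 24.6 CPM in CAC_F. It rose by 0.92 ± 0.22 (adjusted p = 0.0136, edgeR; 0.0514 without CAC_F replicate 2), with CAC_FPL replicate 6 inside the CAC_F range. Nadsyn1, the NAD synthetase of the same route, rose by 0.82 ± 0.22 (adjusted p = 0.019, edgeR), a call lost without CAC_F replicate 1 (0.0688) or 2 (0.0643) or CAC_FPL replicate 1 (0.0516) or 2 (0.0529). Nnt, the mitochondrial transhydrogenase that links NADH to NADPH, was at 44.8 to 54.1 CPM in CAC_FPL and 37.3 to 42.4 CPM in CAC_F without overlap, a rise of 0.30 ± 0.082 (adjusted p = 0.0241, edgeR). Its adjusted p was 0.0514 to 0.0838 without CAC_FPL replicate 1, 2 or 3 or CAC_F replicate 1 or 2.

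The sirtuins Sirt3 and Sirt7, deacylases that consume NAD, rose by 0.67 ± 0.18 and 0.40 ± 0.10 (adjusted p = 0.0189 and 0.0158, edgeR). Sirt3 was at 9.76 to 17.5 CPM in CAC_FPL and 6.69 to 11.8 CPM in CAC_F. The call of Sirt7 was lost without CAC_F replicate 1 (0.0535) or 2 (0.0643), and that of Sirt3 without those (0.0666 and 0.0713) or CAC_FPL replicate 1 (0.0605) or 2 (0.0535). The salvage enzyme Nampt was at 82.9, 87.9, 86.9, 96.5, 83.2 and 148 CPM in CAC_FPL and at 116, 117, 111, 91.8 and 78.1 CPM in CAC_F, and its log2 fold change of -0.07 ± 0.15 did not pass (adjusted p = 0.766, edgeR). Nmnat1, which forms NAD from its mononucleotide, was at -0.16 ± 0.13, and the riboside kinase Nmrk1 at 0.17 ± 0.18, neither of them called. Cd38, an NAD hydrolase of immune cells, was at 110 to 382 CPM in CAC_FPL and 178 to 544 CPM in CAC_F, at -0.83 ± 0.28 (adjusted p = 0.0519, edgeR).

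Of 23 genes of fatty acid oxidation and ketogenesis, 4 were higher and 1 lower (21.7%), with a median of 0.32. Acadm, the medium-chain acyl-CoA dehydrogenase, was at 171, 147, 132, 74.1, 91.2 and 108 CPM in CAC_FPL and at 55.8, 54.2, 81.7, 70.5 and 54.4 CPM in CAC_F, and rose by 0.93 ± 0.20 (adjusted p = 0.0098, edgeR). CAC_FPL replicate 4 was the 1 library inside the CAC_F range. Hadh, which acts later in the same spiral, rose by 0.93 ± 0.23 (adjusted p = 0.0161, edgeR; 0.0602 without CAC_F replicate 2 and 0.0514 without CAC_FPL replicate 1). Glycolysis and hypoxia genes gave 0 higher and 3 lower of 22 (13.6%, near the 12.2% of all genes tested). Hk2, an inducible hexokinase, was at 110, 126, 113, 147, 203 and 158 CPM in CAC_FPL and at 588, 279, 212, 346 and 169 CPM in CAC_F, and fell by 1.16 ± 0.26 (adjusted p = 0.011, edgeR). CAC_F replicate 5 lay within the CAC_FPL range. Pfkfb3, which makes an activator of glycolysis, fell by 2.01 ± 0.46 (adjusted p = 0.0116, edgeR), and the pyruvate kinase Pkm fell by 0.52 ± 0.13 (adjusted p = 0.0173, edgeR), at 904 to 1212 CPM in CAC_FPL and 1399 to 1774 CPM in CAC_F without overlap.

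**Figure D4:**
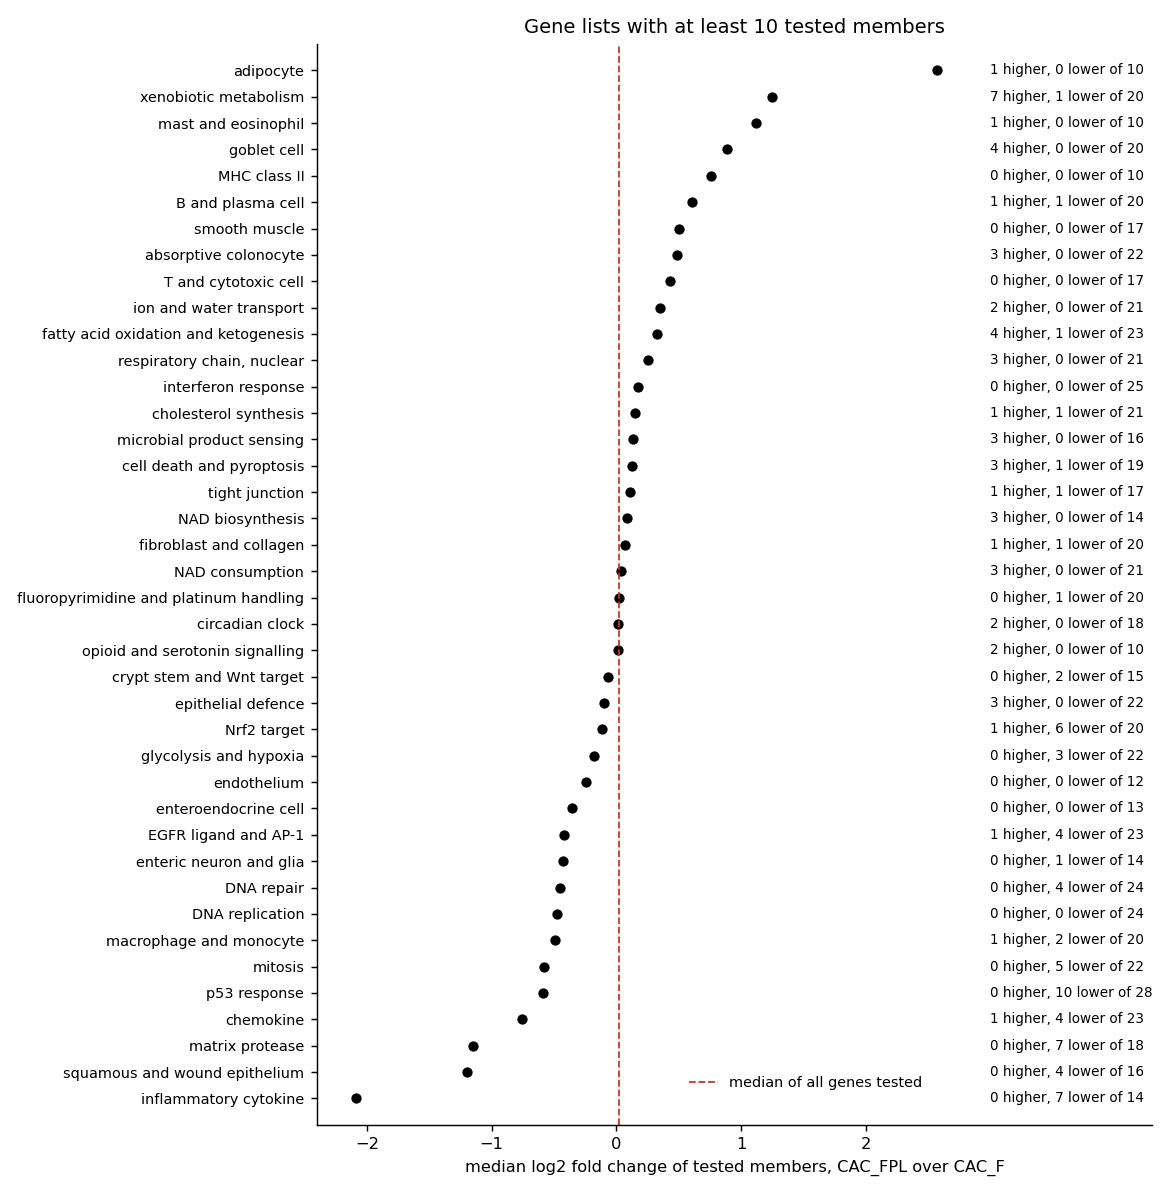
Each dot is the median log2 fold change of CAC_FPL over CAC_F among the tested members of a gene list with at least 10 of them; the dashed line marks the median of all genes tested, 0.023, and the text at the right gives the calls. The inflammatory cytokine list lies lowest at -2.09 and the adipocyte list, with 1 called member, highest at 2.57.

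Of 28 targets of p53 tested, 10 were lower and 0 higher, with a median log2 fold change of -0.59. Mdm2, the ubiquitin ligase that p53 induces and that degrades it, was at 48.7, 49.4, 46.8, 61.9, 63.4 and 55.7 CPM in CAC_FPL and at 111, 98.4, 66.1, 84.1 and 78.6 CPM in CAC_F. The groups did not overlap, and Mdm2 fell by 0.69 ± 0.12 (adjusted p = 0.00562, edgeR). Cdkn1a, the p21 inhibitor of the cell cycle, was at 74.5, 80.4, 148, 130, 170 and 115 CPM in CAC_FPL and at 339, 236, 172, 220 and 226 CPM in CAC_F. It fell by 1.00 ± 0.22 (adjusted p = 0.00994, edgeR), with 170 CPM in CAC_FPL replicate 5 just under 172 CPM in CAC_F replicate 3. Ddit4, a stress-induced inhibitor of mTOR signalling, fell by 1.04 ± 0.19 and Zmat3, an RNA-binding p53 target, by 0.74 ± 0.15 (adjusted p = 0.00562 and 0.00793, edgeR). The means of Cdkn1a in the other groups were 157 CPM in CAC_FP, 95.2 CPM in CAC and 148 CPM in NC.

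All 22 mitosis genes had negative log2 fold changes with a median of -0.58, and 5 were called lower. Cdk1, the kinase that starts mitosis, was at 32.9, 36.6, 12.7, 52.2, 68 and 59.4 CPM in CAC_FPL and at 81.7, 65.7, 80, 68.2 and 86.9 CPM in CAC_F. It fell by 0.81 ± 0.25 (adjusted p = 0.0365, edgeR), a call lost without CAC_FPL replicate 1 or 2 or CAC_F replicate 1, 2 or 5, with adjusted p of 0.0593 to 0.0889. The proliferation marker Mki67 was at 102 to 271 CPM in CAC_FPL and 253 to 411 CPM in CAC_F and was not called, at -0.63 ± 0.22 (adjusted p = 0.0554, edgeR). Of 24 DNA replication genes none was called, 23 had negative log2 fold changes, and the median was -0.47; Rrm2, a subunit of the enzyme that makes deoxynucleotides, was at -1.15 ± 0.40 (adjusted p = 0.0574, edgeR). Its CAC_FPL libraries split into 42.2, 44.7 and 22.1 CPM in replicates 1 to 3 and 112, 164 and 119 CPM in replicates 4 to 6, below 170 to 206 CPM in CAC_F. Of 24 DNA repair genes 4 were lower and 0 higher (16.7%), with Msh6, a mismatch repair protein, at -0.54 ± 0.15 (adjusted p = 0.0265, edgeR). Without CAC_FPL replicate 1, 2 or 3 or CAC_F replicate 2 or 5 its adjusted p was 0.0541 to 0.0725. Lgr5, which marks crypt stem cells, did not reach the filter, with 3.47, 3.96, 0.833, 1.68, 4.02 and 3.24 CPM in CAC_FPL and 0.427, 0.214, 1.49, 0.388 and 0.643 CPM in CAC_F.

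Of 14 inflammatory cytokine genes tested, 7 were lower and 0 higher, and their median log2 fold change of -2.09 was the lowest of the lists with at least 10 tested members. CAC_F replicates 1 and 2 held most of that difference, with a mean log2 CPM over the list of 5.75 and 5.83, against 2.05 to 3.4 in CAC_F replicates 3 to 5 and 1.12 to 3.74 in CAC_FPL. Lif, a cytokine of the interleukin 6 family, was at 4.96, 3.44, 7.4, 17.2, 8.92 and 9.9 CPM in CAC_FPL and at 108, 89.4, 10, 17.1 and 25.4 CPM in CAC_F. It fell by 2.53 ± 0.48 (adjusted p = 0.00581, edgeR), and CAC_FPL replicate 4 lay within the CAC_F range. Ptgs2, the inducible cyclooxygenase, was at 6.25, 4.64, 9.72, 34, 4.55 and 17.8 CPM in CAC_FPL and at 319, 253, 7.91, 6.17 and 10.5 CPM in CAC_F. Its fall of 3.22 ± 0.82 (adjusted p = 0.0169, edgeR) was lost without CAC_F replicate 1 (0.0693) or 2 (0.0602), and the other 3 CAC_F libraries lay inside the CAC_FPL range. The interleukins Il1a, Il11 and Il1b fell by 3.22 ± 0.82, 3.26 ± 0.91 and 2.56 ± 0.73 (adjusted p = 0.0171, 0.0239 and 0.0263, edgeR). Without CAC_F replicate 2 these calls were lost (0.0824, 0.26 and 0.118), and the log2 fold changes were -2.31, -1.37 and -1.84. Il11 also lost its call without CAC_FPL replicate 1 (0.0654) or 2 (0.0603), and Il1b without CAC_F replicate 1 (0.0725) or CAC_FPL replicate 1 (0.0671) or 2 (0.0613).

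Chemokines gave 1 higher and 4 lower of 23 (21.7%), with a median log2 fold change of -0.755 and 5 positive. Neutrophil genes gave 0 higher and 1 lower of 7 (14.3%), with a median of -1.5 and 1 positive. Cxcl2, which attracts neutrophils, was at 0.176, 0.167, 0.685, 2.74, 0.372 and 8.2 CPM in CAC_FPL and at 198, 110, 0.858, 5.08 and 4.75 CPM in CAC_F, and fell by 4.95 ± 1.44 (adjusted p = 0.0288, edgeR). The adjusted p was 0.061 to 0.105 without CAC_FPL replicate 1, 2 or 3 or CAC_F replicate 1 or 2. The neutrophil protein S100a8 was at 0.106 to 1.53 CPM in CAC_FPL and 0.56 to 7.99 CPM in CAC_F and was not called, at -2.89 ± 1.06 (adjusted p = 0.0703, edgeR).

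Matrix proteases followed, with 7 of 18 lower, 0 higher and a median of -1.15. Adam8, a cell-surface protease of leukocytes and injured epithelium, was at 12.9, 11, 14.4, 18.7, 20.9 and 14.5 CPM in CAC_FPL and at 44.9, 87.8, 26.2, 47.8 and 44.9 CPM in CAC_F. Adam8, also picked from genes without overlap, fell by 1.71 ± 0.28 (adjusted p = 0.00508, edgeR). Plat, the tissue plasminogen activator, fell by 2.01 ± 0.44 (adjusted p = 0.0101, edgeR), at 9.76 to 37 CPM in CAC_FPL and 27.5 to 152 CPM in CAC_F. The collagenase Mmp13 was at 4.46, 6.99, 2.54, 16.3, 6.48 and 6.87 CPM in CAC_FPL and at 28, 208, 10.9, 8.06 and 22.1 CPM in CAC_F. It fell by 2.93 ± 0.62 (adjusted p = 0.00958, edgeR), a call lost without CAC_F replicate 2, the library with 208 CPM, where the log2 fold change was -1.26 (adjusted p = 0.0785, edgeR).

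Promoter sequences are shown for the lowered cytokine, chemokine and collagenase genes in which a motif search found a match, since AP-1 and NF-kB are known to relay injury signals to genes of this kind. Windows are the 250 bases before the annotated start, 5′ to 3′ on the gene's strand, from RefSeq on GRCm38.p6, and capitals mark the match to TGANTCA (AP-1) or to the NF-kB motif, which is the capital run in Cxcl2 with any base at the fifth position. Both were searched on both strands. Il11 has a second annotated start, whose window had no match and is not shown. The windows are chr7:4778142-4778391 on the minus strand for Il11, chr2:129309973-129310222 on the minus strand for Il1a, chr11:4257318-4257567 on the plus strand for Lif, chr9:7272264-7272513 on the plus strand for Mmp13 and chr5:90903649-90903898 on the plus strand for Cxcl2.
Il11: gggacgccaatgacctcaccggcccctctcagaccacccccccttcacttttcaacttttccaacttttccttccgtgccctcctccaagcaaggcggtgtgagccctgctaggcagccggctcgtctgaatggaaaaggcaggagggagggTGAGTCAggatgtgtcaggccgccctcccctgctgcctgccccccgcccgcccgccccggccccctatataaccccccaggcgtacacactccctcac
Il1a: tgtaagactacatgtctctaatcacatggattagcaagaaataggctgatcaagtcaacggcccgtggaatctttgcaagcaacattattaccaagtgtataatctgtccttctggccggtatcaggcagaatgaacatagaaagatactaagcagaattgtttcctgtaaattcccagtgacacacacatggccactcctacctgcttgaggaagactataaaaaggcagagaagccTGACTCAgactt
Lif: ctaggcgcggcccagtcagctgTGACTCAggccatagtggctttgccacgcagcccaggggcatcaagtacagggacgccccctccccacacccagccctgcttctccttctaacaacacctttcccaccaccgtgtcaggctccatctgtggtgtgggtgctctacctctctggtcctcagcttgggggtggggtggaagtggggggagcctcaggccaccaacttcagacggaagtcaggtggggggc
Mmp13: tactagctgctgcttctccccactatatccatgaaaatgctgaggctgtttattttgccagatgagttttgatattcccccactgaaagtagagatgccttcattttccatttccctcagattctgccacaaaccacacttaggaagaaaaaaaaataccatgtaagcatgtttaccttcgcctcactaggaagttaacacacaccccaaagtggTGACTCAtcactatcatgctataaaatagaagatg
Cxcl2: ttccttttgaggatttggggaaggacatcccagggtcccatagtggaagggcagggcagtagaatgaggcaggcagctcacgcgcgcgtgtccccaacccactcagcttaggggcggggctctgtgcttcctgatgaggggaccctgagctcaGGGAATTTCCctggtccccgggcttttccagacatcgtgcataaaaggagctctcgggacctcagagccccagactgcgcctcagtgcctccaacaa
The AP-1 match lies 98, 12, 228 and 35 bases before the start in Il11, Il1a, Lif and Mmp13, and the NF-kB match 97 bases before that of Cxcl2. AP-1 matches were in 3 of the 6 called inflammatory cytokine genes and 2 of the 4 called matrix proteases that had a window, against 6.03% of the 10320 tested genes with one. NF-kB matches were in 0 of those 6 and 0 of those 4, in 1 of 2 called chemokine genes and in 0.514% of tested genes. For HNF4 (CAAAGTCCA, 0.514% of tested genes) and CRE (TGACGTCA, 2.97%) none of these 3 lists had a match, and 1 of the 3 lowered EGFR ligand and AP-1 genes with a window, Areg, had a CRE match. For AP-1, 0 of those 3 EGFR ligand and AP-1 genes and 0 of the 2 chemokine genes had a match. Among genes named by size or smallest adjusted p that had a window, AP-1 matches were in 2 of 11 higher genes (18.2%) and 0 of 8 lower genes. Guca2a, which rose, and Muc2, which was not called, also had an AP-1 match. A match is a string of letters in a window and says nothing of binding.

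Papln, an extracellular matrix protein with protease inhibitor domains, was among the lower genes with the smallest adjusted p. It was at 4.92, 4.4, 3.68, 11.4, 8.52 and 4.58 CPM in CAC_FPL and at 29.4, 30.6, 18.1, 23.4 and 21.2 CPM in CAC_F, without overlap, and fell by 1.97 ± 0.30 (adjusted p = 0.00436, edgeR). The table places it on chromosome 12 from 83810408 to 83839156. Avil, an actin regulator found in tuft cells and sensory neurons, was at 4.35, 6.37, 8.85, 7.01, 10.6 and 9.61 CPM in CAC_FPL and at 23.6, 32.1, 21.1, 29.8 and 24.3 CPM in CAC_F, and fell by 1.75 ± 0.27 (adjusted p = 0.00436, edgeR). Papln and Avil, like the others named by size or smallest adjusted p, were picked from genes without overlap. Prss22, an epithelial serine protease, was at 3.67, 4.89, 1.32, 8.97, 11.7 and 11.7 CPM in CAC_FPL and at 80.3, 79.5, 23.2, 39.3 and 28.4 CPM in CAC_F, and fell by 2.83 ± 0.68 (adjusted p = 0.0141, edgeR). Its mean was 18.1 CPM in CAC_FP, 0.14 CPM in CAC and 0.202 CPM in NC.

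Cers3, a ceramide synthase for very long chains, fell by 2.66 ± 0.62 (adjusted p = 0.0123, edgeR) and Atg9b, an autophagy membrane protein, by 2.06 ± 0.49 (adjusted p = 0.0141, edgeR). Trim15, an E3 ligase family protein of focal adhesions, fell by 1.96 ± 0.44, and Prrg4, a membrane protein with a Gla domain, by 1.86 ± 0.37 (adjusted p = 0.0116 and 0.00665, edgeR). These 4 did not overlap between the groups; Atg9b was at 2.6 to 35.1 CPM in CAC_FPL and 48.1 to 102 CPM in CAC_F. Krt4, a keratin of stratified epithelium, fell by 3.00 ± 0.80 (adjusted p = 0.0202, edgeR), a call lost without CAC_F replicate 5 (0.0675) or CAC_FPL replicate 1 (0.0516) or 2 (0.055). Pappa, a protease that frees insulin-like growth factors, fell by 2.03 ± 0.50 (adjusted p = 0.015, edgeR; 0.0519 without CAC_F replicate 2). Of 16 squamous and wound epithelium genes, 4 were lower, 0 higher, and the median was -1.20, and of 23 EGFR ligand and AP-1 genes 4 were lower and 1 higher, with a median of -0.42. Areg, an EGFR ligand, fell by 1.77 ± 0.44 (adjusted p = 0.0159, edgeR; 0.056 without CAC_F replicate 1), at 9.07 to 46.4 CPM in CAC_FPL and 39.3 to 144 CPM in CAC_F.

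**Figure D5:**
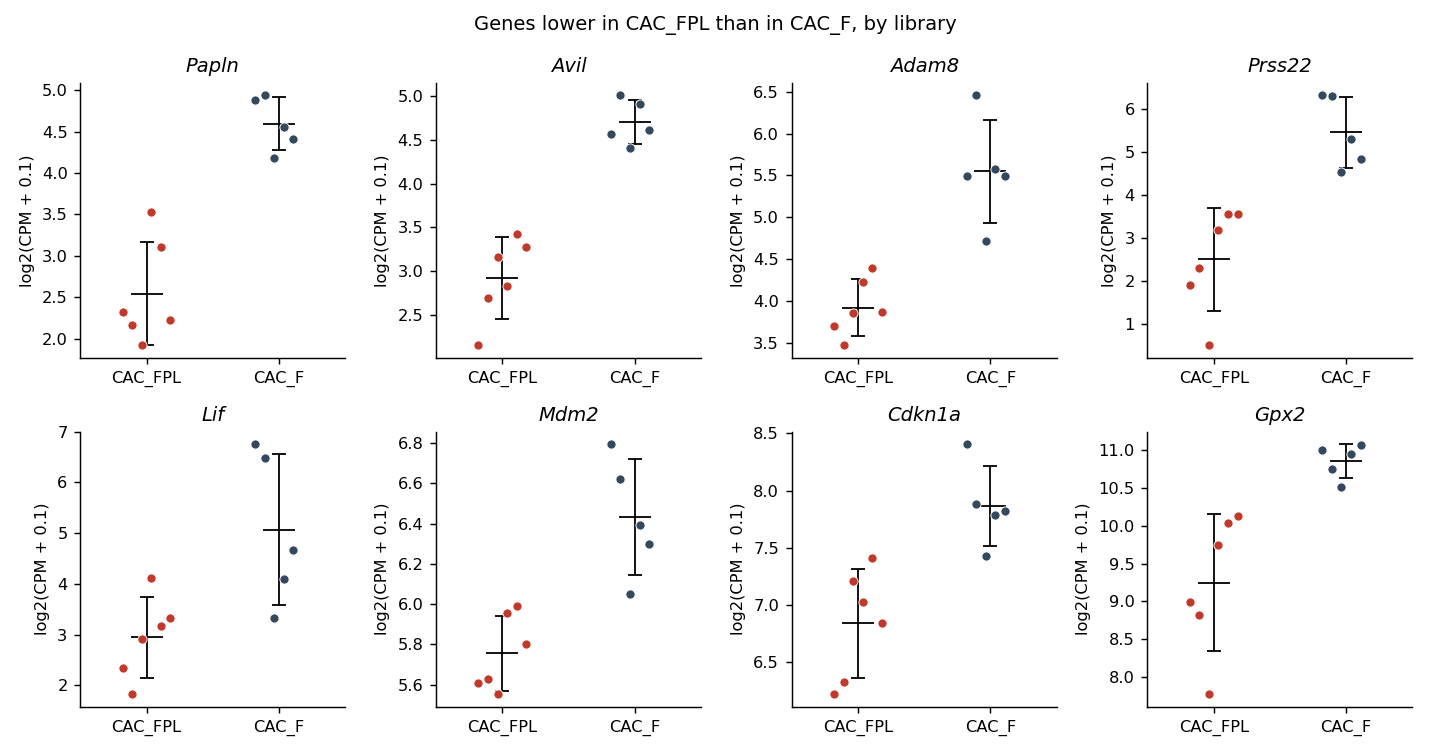
Levels of 8 genes that were lower in CAC_FPL, as log2(CPM + 0.1) with 1 point per library and the group mean and SD, CAC_FPL on the left and CAC_F on the right. Lif is the gene shown whose groups overlap, with 17.2 CPM in CAC_FPL replicate 4 and 10 CPM in CAC_F replicate 3.

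Targets of Nrf2, which answers oxidative stress, split: 6 of 20 were lower and 1 higher. Gpx2, a glutathione peroxidase of the gut epithelium, was at 509, 453, 218, 857, 1050 and 1122 CPM in CAC_FPL and at 2065, 1724, 1469, 1982 and 2146 CPM in CAC_F, and fell by 1.42 ± 0.34 (adjusted p = 0.0148, edgeR). Its groups did not overlap. Gclc, the catalytic subunit that limits glutathione synthesis, fell by 0.80 ± 0.18 (adjusted p = 0.0122, edgeR). Gstm1, a glutathione transferase, went the other way, at 251, 206, 256, 96.4, 128 and 91.5 CPM in CAC_FPL and 71.9, 70, 66.4, 76.4 and 66 CPM in CAC_F. It rose by 1.29 ± 0.25 (adjusted p = 0.00618, edgeR), with no overlap.

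Some high folds rested on few CAC_FPL mice. Haemoglobin genes, markers of red cells and their precursors, summed to 173, 57.2, 31.8, 0, 0.531 and 3.47 CPM in CAC_FPL replicates 1 to 6, against 0 to 0.131 CPM in CAC_F. The first 3 of these libraries were far above the others, replicate 4 had none, and NC averaged 36.2 ± 10.4 CPM (SD, n = 6). Hbb-bs was at 0 in every CAC_F library and at least 1970-fold higher in CAC_FPL over the group, against a floor of 3 counts over CAC_F, and Hba-a1 rose by 8.39 ± 1.46 (adjusted p = 0.00562, edgeR). All 4 haemoglobin genes tested were called and are close copies in pairs, so their reads may be shared. Gsdmc4 and Gsdmc3, gasdermins of the colon surface, rose by 3.95 ± 0.93 and 3.15 ± 0.79 (adjusted p = 0.0131 and 0.0165, edgeR). Gsdmc4 was at 39.7, 302, 19.5, 4.5, 2.46 and 4.83 CPM in CAC_FPL and at 4.51, 3.2, 4.24, 3.29 and 4.88 CPM in CAC_F, so replicates 4 to 6 were level with CAC_F. Without CAC_FPL replicate 2 both calls were lost, with log2 fold changes of 1.815 for Gsdmc4 and 1.474 for Gsdmc3 (adjusted p = 0.0671 and 0.097, edgeR). That of Gsdmc3 was also lost without CAC_F replicate 2 (0.0531). Mptx1, a mucosal pentraxin, followed the same division at 8.07, 14.9, 15.1, 1.04, 1.62 and 0.151 CPM in CAC_FPL and 0.213, 0, 0.0591, 0.417 and 0.25 CPM in CAC_F, a rise of 5.15 ± 1.20 (adjusted p = 0.0125, edgeR). Reg4, a secreted lectin of the gut epithelium, had 1000 CPM in CAC_FPL replicate 3 and 8.38 to 154 CPM in the other CAC_FPL libraries, against 7.44 to 41 CPM in CAC_F. Its rise of 3.80 ± 1.25 (adjusted p = 0.0473, edgeR) dropped to 1.96 without that library (adjusted p = 0.223, edgeR), and the adjusted p was 0.0625 to 0.116 without CAC_FPL replicate 1 or 2 or any 1 of the CAC_F replicates.

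Other immune and stromal lists differed in their share of calls, to be set beside the 12.2% of all genes tested. Macrophage and monocyte genes gave 1 higher and 2 lower of 20 (15%). B and plasma cell genes gave 1 higher and 1 lower of 20 (10%). All 10 MHC class II genes had positive log2 fold changes with a median of 0.76 and 0 were called; H2-Aa, a class II chain, was at 67.4 to 150 CPM in CAC_FPL and 37.3 to 66.8 CPM in CAC_F, at 0.88 ± 0.31 (adjusted p = 0.0641, edgeR). Of 17 smooth muscle genes 0 were called and 16 were positive, with a median of 0.50, and the enteric actin Actg2 was at 1.12 ± 0.41 (adjusted p = 0.0723, edgeR). Col14a1, a fibril-associated collagen, was the called higher member of 20 fibroblast and collagen genes, at 69.8, 37.4, 28.3, 47, 20.2 and 93.3 CPM in CAC_FPL and 18.5, 19.3, 14.1, 14.1 and 21.4 CPM in CAC_F. It rose by 1.5 ± 0.37 (adjusted p = 0.0151, edgeR), with CAC_FPL replicate 5 inside the CAC_F range. T and cytotoxic cell genes gave 0 calls of 17, interferon response genes 0 of 25 and endothelial genes 0 of 12.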

How the data were processed

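RNA was sequenced from 27 libraries, 1 per mouse as far as the labels show, and all libraries carry the same batch label. Per the labels' protocols, total RNA was taken with Trizol and strand was kept by dUTP marking of the second cDNA strand. The authors deposited a raw count for each gene and library, and beside it FPKM. The submitters' processing notes list cutadapt 1.9, FastQC and HISAT2. Their roles, and the counter, gene annotation and build, were not given in the sources used here. Reads appear to have been counted at several copies: Gm28437, a nuclear copy of mt-Co3, had 96.2% to 100% of its count.

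Genes with at least 1 FPKM in at least 5 libraries were kept. Counts were scaled by trimmed means of M values, and edgeR 4.0.16 (R 4.3.3) was fitted to the 27 libraries together, with 1 term for each of the 5 groups. The quasi-likelihood test of CAC_FPL minus CAC_F was adjusted by Benjamini-Hochberg over 15080 genes, two-sided, and called below 0.05. SE was derived as the size of the log2 fold change divided by the root of its F statistic. The test was checked on counts simulated with the same spread in every group, so groups that differ in spread were not covered. No pair of libraries was a duplicate: the smallest chi-square of counts per degree of freedom was 87.3. The p-values measure the spread between these mice in 1 study.

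The comparison, the gene lists (49 lists) and the genes followed were chosen with earlier results of these data known. Named genes were the 10 largest changes of at least 2-fold in each direction among called genes without overlap between groups, the 5 smallest adjusted p in each direction, up to 4 called members of each list discussed (or up to 2 uncalled) and 14 genes always followed; predicted genes and receptor or immunoglobulin segments were left out, and fewer were printed; an item named by this rule is not reported here. Lists are described by counts and medians, with no test. Promoter windows of 250 bases came from RefSeq on GRCm38.p6, which matched 10320 of 15065 tested gene names. Alternatives covered filters, scaling, DESeq2 1.42.0, limma 3.58.1 on voom weights and on log2(FPKM + 1) and log2(FPKM + 0.1), a fit of the 11 libraries alone, covariates, a replicate block and each library left out in turn.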

Additional observations from a re-analysis of the deposited data

Results flagged for a closer look

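Of 159 sets of CAC_FPL or CAC_F values examined, 8 (5.03%) held a library whose gap to its nearest neighbour on the log2(CPM + 0.1) scale was too large a share of the range by Dixon's test, where chance gives about 1 in 20. The lowest CAC_F value belonged to replicate 2 in 6 genes of the epithelium: 0.214 CPM for the annexin Anxa13, 2.28 CPM for the steroid dehydrogenase Hsd3b3, 3.77 CPM for the secretory lineage factor Atoh1, 32.5 CPM for guanylin (Guca2a), 1.23 CPM for the cytochrome Cyp2c55 and 51.1 CPM for the glucuronosyltransferase Ugt2b34. The same library had the pancreatic protease Prss2 at 20 CPM and a first component score of 87.2, and the part of this library's makeup in the results was not tested beyond leaving it out. In CAC_FPL, replicate 6 stood apart for the kallikrein Klk1, lowest at 94 CPM, and for the NAD salvage enzyme Nampt, highest at 148 CPM.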

How the results depend on the processing

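Of 69 called genes among the 80 followed, 42 were called in all 11 fits that left out 1 library and 27 were lost in at least 1; 0 reversed under any alternative. The counts were 1077 higher and 761 lower. Leaving out 1 library gave 233 to 1390 higher and 192 to 1195 lower. No filter gave 423 and 320 over 37962 genes, and median-ratio factors 1014 and 827. DESeq2 gave 1479 and 1229 on all libraries and 800 and 678 on the 11 compared, and voom with library weights gave 1802 and 1655. Limma on log2(FPKM + 1) gave 865 and 854, with 50.3% of its calls higher against 58.6%. The edgeR fit of the 11 libraries alone gave 0 and 0, with 3588 genes at an unadjusted p below 0.05, and ended all 69 calls. The spread was then estimated from other and fewer libraries, and the reason for the loss was not tested. On the first component the SD was 31.2 in CAC_FPL and 18.8 in CAC_F, against 21.8 in CAC_FP, 17 in CAC and 3.82 in NC. Without both CAC_FPL replicate 3 and CAC_F replicate 2, an alternative chosen after seeing the data, edgeR called 26 and 16, and 53 of the 69 calls were lost. As covariates, the adipocyte list, also chosen after seeing the data, ended 3 of the 69 calls, the Hox genes, likewise, 1, and the smooth muscle list 1. Of the 69 calls, limma on log2(FPKM + 1) ended 10, limma on log2(FPKM + 0.1) 6, voom with library weights 9 and no filter 13. Ptgs2, Il1b, Il11, Gsdmc3, Gsdmc4 and Reg4 lost their calls under both FPKM fits and under voom. The log2 fold change of Ptgs2 was -0.997 under voom (adjusted p = 0.327, limma). Otc and Tlr11 were also among those lost under limma on log2(FPKM + 1) (adjusted p = 0.0598 and 0.0738), where a low gene's change is understated. The replicate block gave 1231 and 822 and ended 7 of the 69 calls. Same-numbered libraries of the 2 groups deviated from their group means with correlations of -0.349 to 0.0812. The labels give no pairing, and these few correlations cannot exclude one. At 61433532 to 77206403 counts per library depth was not the limit for genes above 10 CPM; for those under 1 CPM, such as Oprm1, levels near 0 carry counting error.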

Other observations

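The granulocyte gene Ly6g was at 21.1, 45.6, 117, 318, 588 and 88.9 CPM in CAC_FPL and at 1043, 384, 266, 817 and 790 CPM in CAC_F, while the neutrophil genes S100a8 and S100a9 were at most 1.53 and 1.4 CPM in CAC_FPL and 7.99 and 18.3 CPM in CAC_F. Of 21 cholesterol synthesis genes 1 was higher and 1 lower (9.52%, under the share of all genes tested). Mitochondrial transcripts held 5.82% ± 1 of counts in CAC_FPL (SD, n = 6) and 4.58% ± 0.479 in CAC_F (n = 5). The taste G protein gene Gnat3, a tuft cell marker, was at 0 in every CAC_F library and at 0 to 0.529 CPM in CAC_FPL. This was at least 17.4-fold higher over the group against a floor of 3 counts over CAC_F. Its counts were 0, 38, 12, 7, 10 and 0 in CAC_FPL replicates 1 to 6. Whether the call of Gnat3 holds with 1 library left out was not tested. The tuft cell list did not rise: of 9 genes tested 1, Gnat3, was higher and 1, Avil, lower, with a median log2 fold change of -0.0461.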
